A study of Mus musculus with 3 samples.

Results

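Rora+ Eomes- ILC-like cells made up 363 of the 31943 cells kept from 3 droplet-based single-cell RNA-seq libraries of tumor-infiltrating lymphocytes (TILs). Members were chosen by UMI counts in each cell. A member carried at least 1 UMI (a counted molecule) of *Ncr1*, at least 2 UMIs of *Rora*, no UMI of *Eomes*, at least 1 UMI among *Tmem176b*, *Cxcr6* and *Il7r*, and at most 1 UMI each of *Cd3e*, *Cd8b1* and *Mki67*. There were 67 members in the first Kaede-green (KG+) library, 108 in the second and 188 in the Kaede-red (KR+) library, and values of 3 libraries are given in that order below. They were set beside 4361 cells within the same *Ncr1*, *Cd3e*, *Cd8b1* and *Mki67* limits that carried *Eomes* and no *Rora* (1472, 1382 and 1507 cells).

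All 3 libraries came from subcutaneous tumors of MC38-Ova, a mouse colon carcinoma line that makes ovalbumin, grown in WT C57BL/6 Kaede mice after injection of 250000 cells and under isotype control treatment. Kaede mice carry a photoconvertible fluorescent protein, so light on a tumor marks the cells in it at that time. Tumors were lit on day 13 and taken on day 15, so that KR+ cells had been in the tumor for at least 48 h and KG+ cells had come in since. Live CD45+ TER119- cells were sorted by color with CD11b+ NK1.1- myeloid cells left out; the number of animals behind each library is not given in the sources used here, and the photoconverted color has 1 library only.

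Innate lymphoid cells (ILCs) are lymphocytes without rearranged antigen receptors that sit in tissues and answer cytokines. Group 1 ILCs share NKp46, the product of *Ncr1*, and T-bet with natural killer (NK) cells, but ILC1s do without Eomes, the T-box factor that conventional NK cells need. RORα, the product of *Rora*, is a nuclear receptor best known for its part in ILC2 development, and it is also made by other helper-like ILCs.

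The 9 genes of the gate set the members apart by construction and were not tested. *Rora* stood at 460, 464 and 337 CPM (the gene's UMIs in the members of a library, summed and scaled by all UMIs of those members), and *Ncr1* at 266, 290 and 246 CPM against 301, 264 and 249.5 CPM in the Eomes+ Rora- cells. Members carried 297, 242 and 308 CPM of *Tmem176b*, which encodes a membrane channel of the MS4A-like family, against 5.11, 4.82 and 2.73 CPM. *Cxcr6*, a chemokine receptor of tissue-resident lymphocytes, and *Il7r*, the interleukin-7 receptor, were found in 44.9% and 43.2% of members. Only 8, 17 and 30 members had UMIs of *Tmem176b*, *Cxcr6* and *Il7r* all together, and *Tmem176b* was the sole one found in 18, 27 and 57. At the edge of the gate, 21, 22 and 38 members had exactly 2 *Rora* UMIs, and 31, 37 and 45 cells with 1 *Rora* UMI fell just outside. Pooled over libraries, *Krt83* was at 182 CPM in the cells with 1 *Rora* UMI, 292 CPM in members with 2 and 324.5 CPM in members with more, while *Gzma* was at 1224, 661 and 327 CPM. The libraries were mixed in different proportions in these classes, and the part of this was not tested. A further 17, 37 and 38 cells met the rest of the gate but carried *Eomes*; in them *Krt83* was at 97.2 CPM and *Gzma* at 1758 CPM. Their median Scrublet doublet score was 0.129, 0.0694 and 0.0585, and 9, 4 and 4 of them were among the highest scores of their library.

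The label was checked against markers that the gate did not use. UMIs of *Id2*, the repressor that ILCs and NK cells share, were found in 95.9% of members, those of *Gata3*, a factor of ILCs, in 53.7% and those of *Tbx21* (T-bet) in 63.1%. Free RNA can put UMIs into cells that do not make a gene, so shares were read beside those of 307 *Cd79a*+ B cells (200, 100 and 7; median 4013.5, 4840 and 4975 UMIs), where they were 25.7%, 3.91% and 2.61%. The Eomes+ Rora- cells carried them as well, in 96.9%, 41.2% and 48.2% of cells. Among ILC1 markers, *Tnfsf10* (TRAIL) was found in 42.4%, *Itga1* (CD49a) in 36.4% and *Cd200r1* in 10.7%, but *Zfp683* (Hobit) in 1.10%, beside 1.63%, 2.28%, 0.326% and none of B cells and 17.8%, 26.0%, 0.619% and 0.115% of Eomes+ Rora- cells. The defining genes of ILC2s and ILC3s were near the floor: *Il1rl1* was found in 1.38% of members, *Il17rb* in 0.275% and *Il17a* in 0.275%. No member had a UMI of *Il5*, *Il13*, *Il22* or *Il23r*, and 0 of 363 cells allows a share of up to 0.826% for each; this limits cells with a UMI, not cells that express the gene, and covers counting error only. Markers of macrophages were as scarce, with *C1qa* in 1.10% of members, *Csf1r* in 0.275% and *Adgre1* in none.

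Depth differed between libraries and groups. Median UMIs per cell were 7971, 10021 and 13983 in members and 6196, 8205.5 and 17531 in the Eomes+ Rora- cells, so that members were deeper in both KG+ libraries and shallower in the KR+ library. Median Scrublet doublet scores were 0.0572, 0.053 and 0.0392 in members and 0.0432, 0.0403 and 0.0382 in Eomes+ Rora- cells, with 8, 3 and 5 members and 53, 31 and 17 Eomes+ Rora- cells among the highest 8% of scores. The mean mitochondrial share was 3.38%, 2.96% and 2.90% in members and 2.96%, 2.75% and 2.49% in Eomes+ Rora- cells. Depth was varied by thinning each cell to 5000 UMIs and by a window of 5000 to 20000 UMIs, and cells with high scores were left out. Beyond these alternatives the part of these differences in the results was not tested. No member barcode was shared between the first KG+ library and another, and 1 was shared between the second KG+ and the KR+ library.

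Members formed a larger share of the KR+ library than of either KG+ library. They were 4.35% (67 of 1539; exact 95% interval 3.39 to 5.50%), 7.25% (5.98 to 8.68%) and 11.1% (9.63 to 12.7%) of members plus Eomes+ Rora- cells. Of all kept cells they were 0.670%, 0.975% and 1.73%. After each cell was thinned to 5000 UMIs the share was 4.95%, 6.56% and 9.33% (7.35 to 11.6% in KR+), and the KR+ interval then overlapped that of the second KG+ library (5.02 to 8.399%). With all UMIs the intervals of the KG+ libraries did not overlap each other either, and with 1 KR+ library no test between colors was possible.

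**Figure D1:**
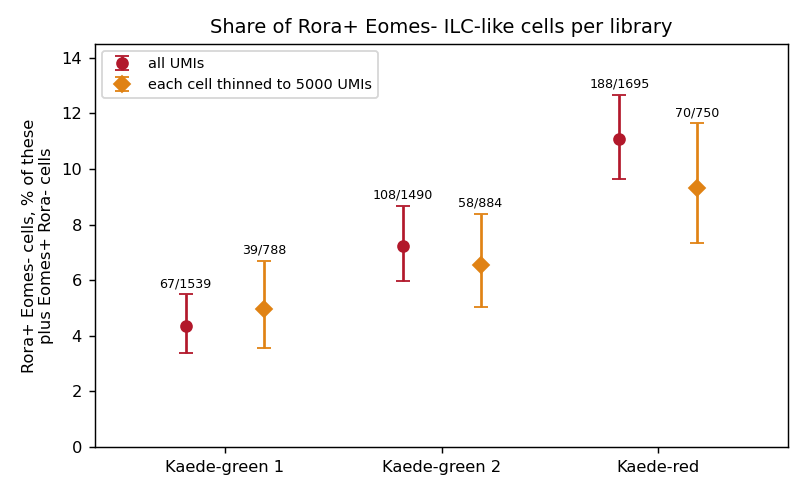
Rora+ Eomes- ILC-like cells as a percentage of these plus Eomes+ Rora- cells (y axis) in each library (x axis), with all UMIs (circles) and after thinning each cell to 5000 UMIs (diamonds); bars are exact 95% binomial intervals and labels give cells over total. The share ran from 4.35% in the first KG+ library to 11.1% in KR+ with all UMIs, and from 4.95% to 9.33% after thinning.

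The first comparison asked what told these cells from Eomes+ Rora- cells of the same tumors beyond the gate. UMIs were summed per library and group, which gave 6 sums, and tested with the library as a block. Of 10517 genes tested, 260 (2.47%) were higher and 197 (1.87%) lower in members at an adjusted p under 0.05 (edgeR's quasi-likelihood test, Benjamini-Hochberg adjustment), around a median log2 fold change of -0.01. The 3 sums of members lay above all 3 comparison sums for 9.22% of tested genes and below them for 5.31%. The counts leaned on single libraries: without the second KG+ library 135 genes were higher and 68 lower, and without the KR+ library 510 and 517. Without the library block 107 genes were higher and 62 lower, and with no filter on low counts 349 and 400. In these sums more UMIs of a gene per cell and more cells with the gene cannot be told apart.

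*Krt83*, a type II hair keratin gene (chromosome 15, 101485130 to 101491512, minus strand, mm10), was at 336, 339 and 305 CPM in members and at 6.28, 5.40 and 3.69 CPM in Eomes+ Rora- cells. Every member sum lay far above every comparison sum, with a log2 fold change of 5.98 ± 0.15 (edgeR, adjusted p = 1.04e-09). Here and below, ± is an SE taken from edgeR's test statistic, whose dispersion is moderated across genes. It is not the spread of the 3 library ratios, whose SD was 0.32 for *Krt83* and 1.08 for *Trdc*. *Tmem176a* was at 232.5, 170 and 193 CPM against 1.88, 2.70 and 1.88 CPM (log2 fold change 6.44 ± 0.19, adjusted p = 2.23e-09). It is not independent of the gate in position: it spans 48840919 to 48847071 on the plus strand of chromosome 6 and its first exons overlap those of the gate gene *Tmem176b* on the opposite strand (48833818 to 48841496). 

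The constant regions of the γ and δ T cell receptor chains went opposite ways. *Tcrg-C4*, a constant region of the γ chain (chromosome 13, 19344558 to 19352756), was at 105, 130 and 96.2 CPM in members and 4.21, 3.43 and 2.08 CPM in Eomes+ Rora- cells (log2 fold change 5.11 ± 0.19, adjusted p = 2.22e-08). *Tcrg-C1* was higher as well, at 4.62, 9.01 and 6.16 CPM against 1.08, 1.09 and 0.342 CPM (adjusted p = 2.17e-03). *Trdc*, the constant region of the δ chain (chromosome 14, 54142851 to 54148868), was at 4.62, 21.8 and 6.85 CPM in members and 119, 113 and 57.6 CPM in Eomes+ Rora- cells, and fell by 3.04 ± 0.26 on the log2 scale (adjusted p = 2.24e-05). The member and comparison sums overlapped for none of these genes.

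Members had little RNA of 6 named Ly49 receptors. The Ly49 genes encode MHC class I-binding lectin-like receptors of mouse NK cells and sit in a row on the minus strand of chromosome 6 (130043731 to 130386874 for the 6 named here). *Klra4* (Ly49D) was at 4.62, 18.8 and 10.96 CPM in members and 554, 487 and 348 CPM in Eomes+ Rora- cells (log2 fold change -5.20 ± 0.23, adjusted p = 7.79e-08). *Klra8* (Ly49H) fell by 4.94, *Klra1* (Ly49A) by 4.85, *Klra7* (Ly49G) by 4.18, *Klra9* (Ly49I) by 4.01 and *Klra3* (Ly49C) by 3.50 on the log2 scale, each with an SE of 0.16 to 0.25. *Klra5*, of the same family, was not called either way here and was called lower in the second comparison below. Members held 12, 30 and 128 of its UMIs, with 75%, 46.7% and 17.2% of them in 1 cell. The member with the most *Klra7* UMIs held 93.8%, 22.45% and 28.6% of the 16, 49 and 70 found in the members of each library. These genes are one family of similar sequence, so reads of one may be counted to another. RefSeq's sequence (GRCm38.p6) before the starts of *Klra4* (chr6:130067272-130067521) and *Klra8* (chr6:130129899-130130148), both on the minus strand, matched at 85.1% of 249 aligned bases, while the other pairs among the 6 genes ran from 49.4% (*Klra1* and *Klra8*) to 97% (*Klra3* and *Klra9*). The 250 bases before each start are shown 5′ to 3′, as the pair that fell most among the genes named by size. Those of *S100a4* (chr3:90603520-90603769, plus strand) are shown with its match to the ROR element in capitals. Of the 24 genes named by size in the first comparison, 17 had a promoter in the table used and only *S100a4* had this match. *Ccl3* and *Nfil3*, named below with their lists, had a match too.
Klra4: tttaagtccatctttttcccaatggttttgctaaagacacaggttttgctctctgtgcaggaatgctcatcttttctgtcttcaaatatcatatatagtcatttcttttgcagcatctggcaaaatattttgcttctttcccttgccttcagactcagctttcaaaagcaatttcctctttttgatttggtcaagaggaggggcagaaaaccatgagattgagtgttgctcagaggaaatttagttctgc
Klra8: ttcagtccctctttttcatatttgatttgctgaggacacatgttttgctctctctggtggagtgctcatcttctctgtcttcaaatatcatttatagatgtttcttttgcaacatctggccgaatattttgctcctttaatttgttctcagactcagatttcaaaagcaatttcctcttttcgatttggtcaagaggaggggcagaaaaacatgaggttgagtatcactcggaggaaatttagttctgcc
S100a4: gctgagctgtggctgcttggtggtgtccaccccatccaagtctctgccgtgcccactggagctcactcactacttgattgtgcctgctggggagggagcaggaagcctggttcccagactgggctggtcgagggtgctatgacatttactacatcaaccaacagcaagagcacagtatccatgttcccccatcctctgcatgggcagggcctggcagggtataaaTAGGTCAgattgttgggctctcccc

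The ROR element (TAGGTCA, either strand) was found in the 250 bases before a start for 5 of 189 genes higher in members that had a promoter in the RefSeq table (2.65%) and 3 of 150 lower genes (2.00%), beside 1.97% of the 8258 tested genes with a promoter. A T-box element (AGGTGTGA, either strand) was found for 4 of 189 (2.12%) and 4 of 150 (2.67%), beside 0.811% of tested genes. The *S100a4* match lay 25 bases before the start, and neither element was found before *Klra4* or *Klra8*. These are matches of letters in one window, and the counts are small.

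*Gzma* (granzyme A, chromosome 13, 113093825 to 113100981) had the widest gap among the granule genes. It was at 531, 635 and 240 CPM in members and 10430, 8825 and 3951 CPM in Eomes+ Rora- cells (log2 fold change -4.10 ± 0.12, adjusted p = 2.84e-09). The B cells held 433, 277 and 14.4 CPM of *Gzma*, from 398, 169 and 1 UMIs.

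Shares of cells were compared at equal depth. Each cell was thinned to 5000 UMIs, which left 346 members, 3715 Eomes+ Rora- cells and 84 B cells. UMIs of any of the 6 named Ly49 genes were then found in 17.3% of members, 93.0% of Eomes+ Rora- cells and 22.6% of B cells, *Gzma* in 35.8%, 92.8% and 52.4%, and *Trdc* in 5.49%, 33.0% and 5.95%. With all UMIs the same genes were found in 31.1%, 54.8% and 7.99% of members and in 17.6%, 41.4% and 3.26% of all 307 B cells. The order of members and B cells thus turned with the thinning, which kept only the deepest B cells (36 and 45 from KG+, 3 from KR+), and the *Gzma* CPM of members was above that of B cells in each library, so no order between them is read from these shares. They are pooled over libraries that differed: after thinning, *Gzma* was found in 40.0% of members in the first KG+ library and 59.6% in the second. Both lay above the pooled 35.8%, so the share in KR+ members was below it. *Krt83* was found in 67.6% of members, 2.40% of Eomes+ Rora- cells and none of the B cells, *Ikzf2* in 68.8%, 26.7% and 10.7%, and *Tcrg-C4* in 34.4%, 1.16% and 1.19%.

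**Figure D2:**
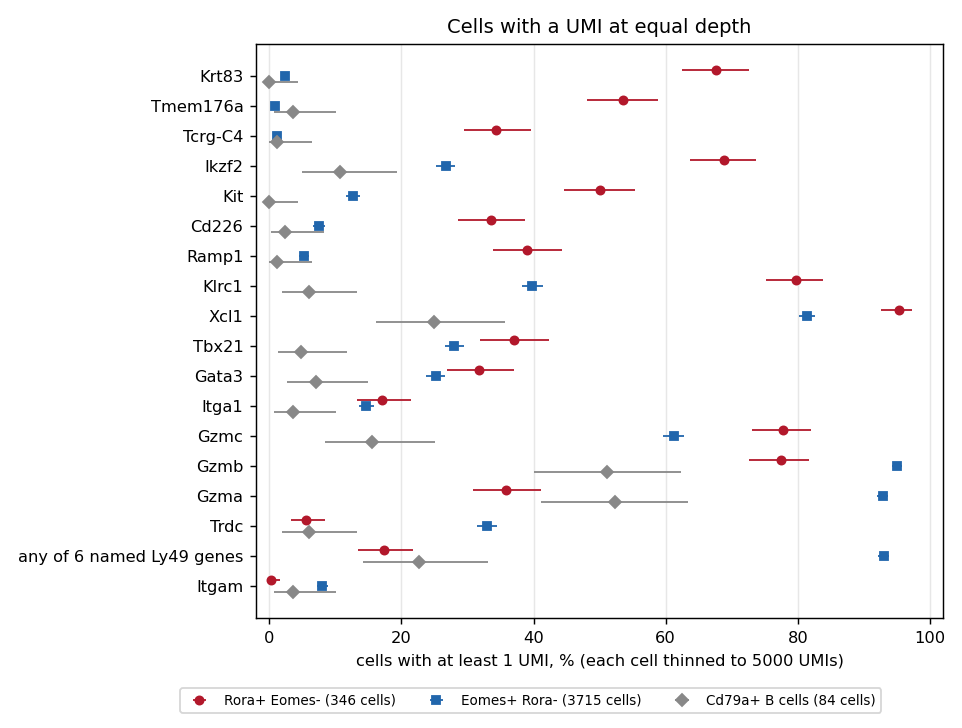
Percentage of cells with at least 1 UMI (x axis) of each gene (y axis) after each cell was thinned to 5000 UMIs, pooled over the 3 libraries, in Rora+ Eomes- ILC-like cells (circles), Eomes+ Rora- cells (squares) and B cells (diamonds); bars are exact 95% binomial intervals. Members were far above both other groups for Krt83 (67.6%) and Tmem176a (53.5%) and far below Eomes+ Rora- cells for Gzma (35.8% against 92.8%), Trdc and any of the 6 Ly49 genes.

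Other named genes higher in members had smaller folds, and their sums did not overlap between groups. *Ramp1*, a subunit of the receptor for the neuropeptide CGRP, was at 106, 128 and 135 CPM against 11.6, 12.8 and 8.03 CPM (log2 fold change 3.51 ± 0.18, adjusted p = 3.25e-07). *S100a4*, a calcium-binding protein gene, was at 887, 1186 and 1749 CPM against 103, 132 and 346 CPM (2.80 ± 0.17). *Cd226*, the activating receptor DNAM-1, was at 92.4, 116 and 107 CPM against 19.5, 18.9 and 11.4 CPM (2.69 ± 0.18). *Ikzf2* (Helios) was at 457, 343 and 358.5 CPM against 90.6, 112 and 83.5 CPM (1.95 ± 0.14). Others were *Ckb*, a creatine kinase (3.44), *Bcl2a1d*, an anti-apoptotic BCL2 relative with near copies (2.43), *Ccdc184* (2.42) and *Inpp4b*, a lipid phosphatase (2.16). *Ccdc184* no longer passed without the second KG+ library (2.43, adjusted p = 0.0526) or without the library block (2.24, adjusted p = 0.123), with folds about as large.

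**Figure D3:**
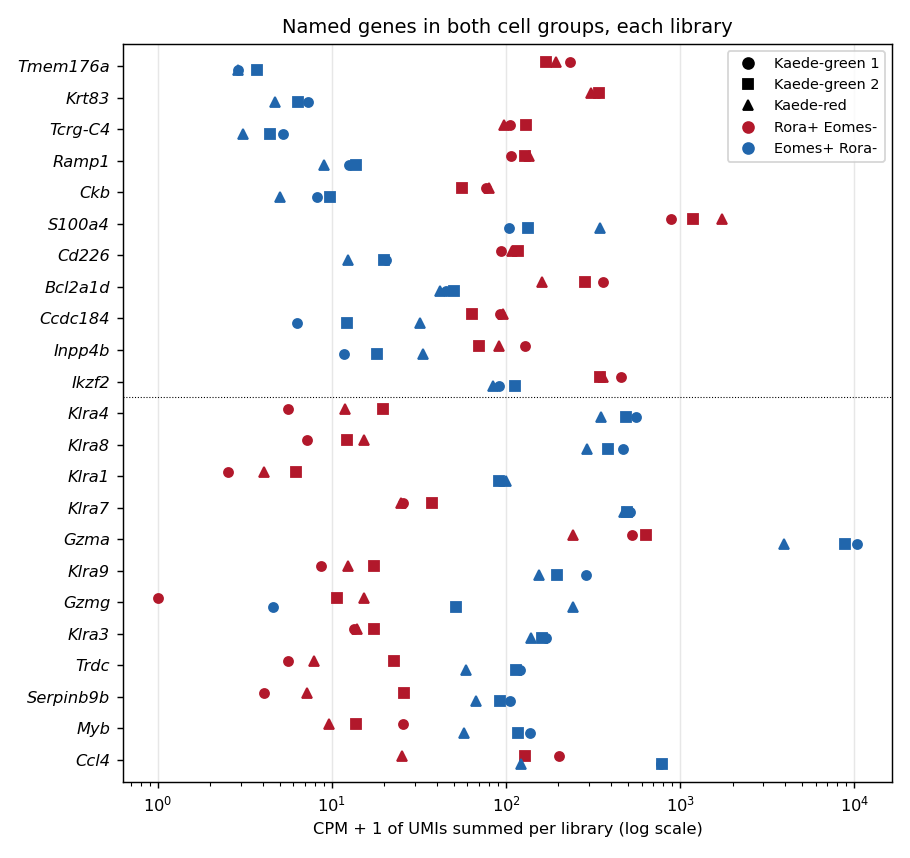
CPM + 1 of UMIs summed per library (x axis, log scale) for named genes (y axis), in Rora+ Eomes- ILC-like cells (red) and Eomes+ Rora- cells (blue), with 1 symbol per library; the dotted line parts the genes higher from those lower in members. The 3 sums of each group stood apart for every gene shown but Gzmg and Ccl4.

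Among the lower named genes outside the Ly49 family, *Serpinb9b*, a protease inhibitor gene, was at 3.08, 24.8 and 6.16 CPM against 104, 90.9 and 66.0 CPM (log2 fold change -2.95 ± 0.33). *Myb*, a factor of immature and proliferating blood cells, was at 24.6, 12.8 and 8.56 CPM against 137, 117 and 56.4 CPM (-2.87 ± 0.18). *Gzmg* and *Ccl4* passed the test within libraries (-3.72 ± 0.31 and -2.36 ± 0.14), but their member and comparison sums overlapped across libraries. Without the library block neither passed in edgeR (adjusted p = 0.432 and 0.291), with folds about as large (-3.40 and -2.36). *Gzmg* was at 0, 9.76 and 14.4 CPM against 3.59, 50.3 and 242 CPM, and no longer passed with *Rora* at 1 UMI or more (-0.62, adjusted p = 0.889) or among cells of 5000 to 20000 UMIs (-1.22, adjusted p = 0.0554).

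Tissue-residence genes were mostly higher in members. Of the 18 tested genes of the ILC1 and tissue-residence list, 11 were higher and none lower, with a median log2 fold change of 0.97. The 11 included *Tmem176a*, whose exons overlap those of the gate gene *Tmem176b*. *Kit*, the stem cell factor receptor, was at 160, 159 and 130.5 CPM against 28.6, 49.2 and 36.9 CPM (adjusted p = 1.98e-05). *Cd200r1*, an inhibitory receptor, stood at 16.9, 10.5 and 8.22 CPM against 0.359, 1.31 and 0.307 CPM, and *Tnfsf10* at 64.7, 41.3 and 60.9 CPM against 18.3, 21.1 and 28.4 CPM. *Itga1*, the α1 chain of a collagen-binding integrin, did not pass: it was at 20.0, 52.6 and 58.6 CPM in members and 24.9, 27.9 and 70.6 CPM in Eomes+ Rora- cells (adjusted p = 0.970). *Cd69* and *Rgs1* did not pass either (adjusted p = 0.384 and 0.278).

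Genes of circulating NK cells were mostly lower, 12 of the 21 tested, with 2 higher and a median of -1.08. *Itgam* (CD11b) was at 0, 3.004 and 0.685 CPM against 39.7, 21.6 and 2.90 CPM, and *Itga2* (CD49b) at 13.9, 12.8 and 6.16 CPM against 85.6, 56.9 and 16.4 CPM. The member *Itga2* sums lay below all comparison sums, and the *Itgam* sums overlapped. The 2 list genes that went the other way were *Ly6c2*, a surface protein of monocytes and lymphocytes, at 556, 514 and 925 CPM against 195, 179 and 172 CPM, and *Cd7*, at 108, 149 and 98.6 CPM against 86.5, 74.8 and 20.9 CPM.

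Lineage factors split. Of 35 tested, 6 were higher (*Zbtb16*, *Ikzf2*, *Bcl11b*, *Maf*, *Tox* and *Runx2*) and 4 lower (*Zeb2*, *Runx1*, *Nfil3* and *Nr4a2*), with a median of 0.30. *Zbtb16* (PLZF), which marks ILC precursors, was at 12.3, 8.26 and 5.14 CPM against 1.25, 2.63 and 0.410 CPM (log2 fold change 2.69 ± 0.47, adjusted p = 0.00511). *Zeb2*, a factor of NK cell maturation, was at 26.2, 21.0 and 18.5 CPM against 65.6, 52.2 and 27.9 CPM (-1.08 ± 0.18). *Tbx21* was at 92.4, 107 and 88.3 CPM against 79.0, 70.3 and 63.9 CPM and did not pass (adjusted p = 0.155), nor did *Gata3* at 119, 94.6 and 61.3 CPM against 82.4, 75.0 and 35.8 CPM (adjusted p = 0.0561), although each member sum was above its own library's comparison sum.

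Genes of the ILC2 and ILC3 lists were higher in part, without the cytokines that define those cells. Of the 12 ILC2 list genes tested, 7 were higher and 2 lower, with a median of 1.17: *Areg* (amphiregulin) was at 26.2, 20.3 and 23.3 CPM against 5.02, 10.7 and 5.81 CPM and *Il2ra* at 90.8, 104 and 64.0 CPM against 17.5, 25.8 and 24.8 CPM. A single member held 70.6% of the *Areg* UMIs in the first KG+ library and 47.1% in KR+. Of the 10 ILC3 list genes tested, 6 were higher: *Tmem176a*, *Lta*, *Kit*, *Nrp1*, *Ltb* and *Maf*. *Tmem176a*, *Kit* and *Ltb* were also counted in the ILC1 and tissue-residence list, so the 2 lists are not independent. *Ltb*, the lymphotoxin β chain, was at 288, 385 and 386 CPM against 101, 122 and 170 CPM (adjusted p = 6.29e-05).

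NK receptor genes outside the Ly49 family went both ways. *Klrc1* (NKG2A) was at 522, 383 and 378 CPM against 165, 165 and 134 CPM (log2 fold change 1.40 ± 0.12) and *Klrb1b* at 539, 496 and 456.5 CPM against 239, 192 and 187 CPM (1.22 ± 0.11). *Klrb1c* (NK1.1) was lower at 155.5, 157 and 152 CPM against 393, 295 and 195 CPM, and *Klre1* at 219, 241 and 255.5 CPM against 621, 582 and 535 CPM. Over the whole list, 2 of the 22 tested genes were higher and 12 lower. *Klrk1* (NKG2D) at 576, 511 and 508 CPM did not pass (log2 fold change -0.18 ± 0.10, adjusted p = 0.517). Of 27 activating receptors and adaptors, 8 were lower, *Tyrobp* (DAP12) from 2461, 2294 and 2232 CPM in Eomes+ Rora- cells to 1281, 1272 and 1277 CPM in members and *Sh2d1a* (SAP) from 121, 117 and 101 CPM to 24.6, 22.5 and 26.7 CPM. *Cd226*, *Cd160* and *Cd7* were the 3 higher ones.

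Of 25 granule genes tested, 7 were lower and 1 higher in members. *Prf1* (perforin) was at 192.5, 249 and 244.5 CPM against 831, 824 and 961 CPM (adjusted p = 1.37e-06) and *Gzmb* at 2040, 2438 and 2017 CPM against 5165, 4634 and 4521 CPM (adjusted p = 3.65e-05). *Gzmc* was the most abundant one in members, at 4587, 10390 and 14650 CPM against 2867, 3529 and 16650 CPM: members were higher in the KG+ libraries and lower in KR+, and it did not pass (adjusted p = 0.253). *Gzmf* stood at 3.08, 1226 and 206.5 CPM, with 58.2% of the second library's UMIs in 1 cell.

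Of 11 chemokine genes tested, 1 was higher and 3 were lower, with a median of -0.54. *Xcl1* (lymphotactin), which draws dendritic cells, was at 3321, 3074 and 2768 CPM in members and 1516, 1935 and 1712 CPM in Eomes+ Rora- cells, with no overlap (log2 fold change 0.77 ± 0.11, adjusted p = 1.87e-03). *Ccl3*, *Ccl4* and *Ccl5* were lower within libraries although the sums of all 3 overlapped, *Ccl5* at 1895, 1458 and 106.5 CPM against 6774, 4998 and 278 CPM. Of 18 cytokine and growth factor genes tested, 6 were higher (*Lta*, *Areg*, *Furin*, *Ltb*, *Tnf* and *Tnfsf14*) and none lower. A single member held 71.4% of the 14 *Lta* UMIs of the first KG+ library and 1 held 40.0% of the 60 *Tnf* UMIs of KR+. *Ifng* was at 490, 134 and 30.1 CPM in members against 225, 255 and 73.1 CPM and did not pass (adjusted p = 0.760), and 79.6% of its UMIs in the first KG+ library were in 1 member.

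Checkpoint and costimulatory receptors were higher for 10 of 25 and lower for 2, with a median of 0.59. *Tnfrsf25* (DR3), the receptor of TL1A, was at 26.2, 17.3 and 14.4 CPM against 0.538, 0.365 and 0.171 CPM (log2 fold change 5.75 ± 0.40, adjusted p = 4.00e-06). *Pdcd1* (PD-1) was at 6.16, 37.6 and 72.9 CPM against 4.39, 8.83 and 8.33 CPM (2.40 ± 0.29), so the groups lay close in the first KG+ library and apart in the others. *Lag3* was at 112, 80.3 and 111 CPM against 17.8, 25.5 and 43.1 CPM and *Ctla4* at 146, 88.6 and 112 CPM against 19.3, 37.8 and 42.0 CPM. *Havcr2* (TIM-3) and *Tigit* were under 10 CPM in every sum and did not pass.

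**Figure D4:**
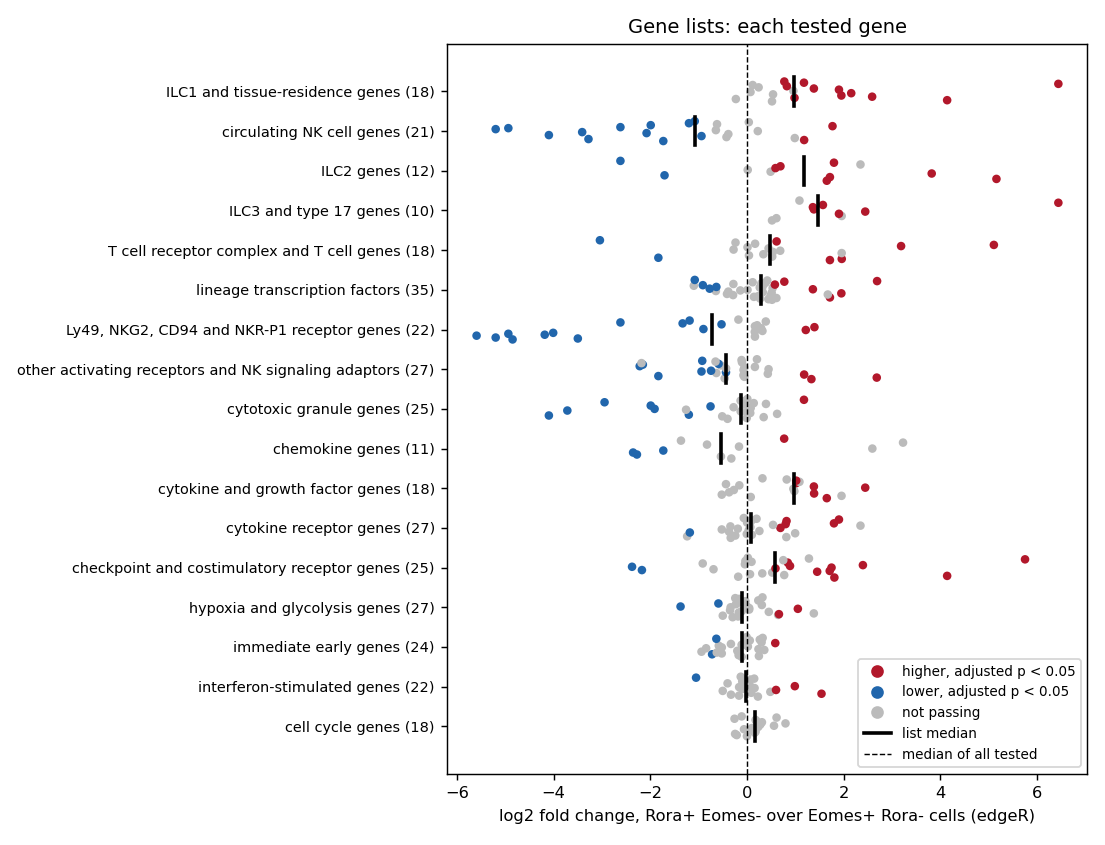
Log2 fold change of members over Eomes+ Rora- cells (x axis, edgeR) for each tested gene of 17 lists (y axis, number tested in brackets), colored by whether it passed an adjusted p of 0.05; the thick bar is the list median and the dashed line the median of all tested genes (-0.01). Ly49 and granule genes lie farthest to the left, and the ILC1 and tissue-residence list has 11 higher and no lower gene.

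Markers of other cell types were followed beside these results. Of 18 tested genes of the T cell receptor and T cell list, 5 were higher (*Tcrg-C4*, *Tcrg-C1*, *Camk4*, *Bcl11b* and *Trbc2*) and 2 lower (*Trdc* and *Cd247*). *Trbc2*, a constant region of the T cell receptor β chain, was at 471, 362 and 431 CPM against 302, 263 and 230 CPM, without overlap. *Cd3d* at 24.6, 41.3 and 32.2 CPM against 30.4, 48.2 and 21.4 CPM and *Cd3g* did not pass (adjusted p = 0.985 and 0.426). The list summed to 1549, 1428 and 1377 CPM in members and 1407, 1432 and 1057 CPM in Eomes+ Rora- cells, led by *Trbc1*. Of 12 macrophage, monocyte and dendritic cell genes tested, only *Ly6c2* was higher, but the list summed to 1493, 1128 and 1831 CPM against 741, 841 and 418 CPM and 6 of its 23 genes were at 0 in members. *Cd74*, the MHC class II invariant chain, was at 437, 191.5 and 398 CPM against 138, 190 and 15.4 CPM (adjusted p = 0.123) and *H2-Aa* at 89.3, 43.5 and 93.1 CPM against 58.6, 69.5 and 1.40 CPM, with 34.9% to 48.3% of a library's member *H2-Aa* UMIs in 1 cell. Of 6 B cell genes tested none passed, and the list summed to 216, 101 and 111 CPM in members. The part of such cells in the differences above was not tested. Under a strict gate that also left out every cell with a UMI of *Cd3d*, *Cd3g*, *Cd4*, *Cd8a*, *Cd79a* or *C1qa*, 199 genes were higher and 151 lower, and 170 and 130 of the first comparison's calls were kept.

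The second comparison set members beside the 1065 Eomes+ Rora- cells with *Itga1* and no *Itgam* (157, 204 and 704 cells). Both comparisons share the member sums. Of 8782 genes tested, 555 (6.32%) were higher and 352 (4.01%) lower in members (edgeR), 10.3% in all, while the sums did not overlap for 12.6% and 6.54%. Fewer genes passed without the KR+ library (329 higher, 228 lower), with DESeq2 (288 and 157), under the strict gate (228 and 143) and without the library block (172 and 100). *Krt83* was at 6.13, 7.96 and 2.67 CPM in the Itga1+ cells, *Tmem176a* at 1.02, 2.77 and 2.27 CPM and *Tcrg-C4* at 7.15, 5.88 and 2.05 CPM, all far below members. *Klra4* was at 334.5, 341 and 302.5 CPM and *Gzma* at 6500, 6556 and 3362 CPM, all far above. *Tmsb15a*, a thymosin gene, was at 0, 4.51 and 3.42 CPM in members and 47.5, 58.5 and 94.9 CPM in the Itga1+ cells (log2 fold change -4.67 ± 0.27). Other genes named here and not among those named by size in the first comparison were *Ahcyl2* (2.29), *Cd7* (2.00), *Furin*, a protease that matures TGF-β (1.91), and the interferon-stimulated *Ifi27l2a* (1.86).

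Against the Itga1+ cells, 20 of 33 lineage factors were higher and 3 lower (median 0.57). *Gata3* (log2 fold change 0.62 ± 0.13, adjusted p = 2.83e-03), *Tbx21* (0.57 ± 0.13) and *Ahr* (0.88 ± 0.19) passed here. The clustered granzymes were lower: *Gzmd* at 163, 568.5 and 531 CPM against 466, 1031 and 2804 CPM, *Gzme* at 90.8, 243 and 299 CPM against 275, 490 and 1265 CPM, and *Gzmc* (-0.66 ± 0.15, adjusted p = 9.70e-03). These genes are near copies of each other. Of 25 hypoxia and glycolysis genes, 12 were lower and 3 higher with a median of -0.36: *Pgk1* was at 220, 319 and 339 CPM against 431.5, 386 and 500.3 CPM and *Gapdh* at 1369, 1554 and 1778 CPM against 2108, 1673 and 2469 CPM. *Hk2*, *Vegfa* and *Ddit4* were the higher ones, *Vegfa* at 368, 384 and 251 CPM against 254, 251 and 134 CPM. Immediate early genes were higher for 11 of 24 and lower for 1. Of 6 chemokine genes tested, *Xcl1* was higher and *Ccl4* lower. *Ccl5*, lower than in all Eomes+ Rora- cells in the first comparison, was not called against the Itga1+ cells. The Itga1+ cells were deeper than members in each library, with medians of 9493, 10900.5 and 24560 UMIs, and the part of depth was not tested beyond the window of 5000 to 20000 UMIs, where 397 genes were higher and 303 lower.

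Members also varied among themselves. Those with *Il7r* (35, 50 and 72 cells) were set beside those without (32, 58 and 116 cells). The gate already used *Il7r*, so the arms differ by construction: every member without it carried *Tmem176b* or *Cxcr6*, while 12, 11 and 11 members had entered through *Il7r* alone. Of 5798 genes tested, 27 (0.466%) were higher and 8 (0.138%) lower with *Il7r* (edgeR), 0.604% in all. The sums did not overlap for 5.48% of genes higher and 4.5% lower. *Tnfsf11* (RANKL) was at 89.4, 27.1 and 77.1 CPM in Il7r+ and 3.18, 13.5 and 18.7 CPM in Il7r- members, without overlap (log2 fold change 2.05 ± 0.30, adjusted p = 1.28e-04). *Ccl5*, *Klf2* and *Cd7* were higher as well, and *Gzmb*, *Gzmf*, *S100a4* and *Ly6c2* lower. Genes of other cell types moved with them: *Cd3g* was at 23.8, 107 and 47.2 CPM against 3.18, 27.0 and 13.7 CPM, *Cd3d* at 41.7, 54.3 and 55.3 CPM against 6.37, 31.0 and 18.2 CPM, and 4 of 7 tested macrophage, monocyte and dendritic cell genes were higher, *H2-Eb1* at 209, 50.9 and 131.5 CPM against 22.3, 25.6 and 43.5 CPM. A single cell held 71.4% of the *H2-Eb1* UMIs of the first KG+ library's members, and 1 cell each held 41.9% and 42.3% of the *Tnfsf11* UMIs of the KG+ libraries. For *Gzmf*, 1 cell held 58.2% of the members' UMIs in the second KG+ library and 1 held 64.3% in KR+. The *Gzmf* fold without these cells was not tested. High Scrublet scores fell on 6, 3 and 3 Il7r+ and 2, 0 and 2 Il7r- members, and the 2 members called doublets were Il7r+. Under the strict gate, which removes cells with *Cd3d* or *Cd3g* by construction, 1 gene was higher and 2 were lower, and 0 of the 27 and 1 of the 8 calls were kept. Without the second KG+ library 10 genes were higher and 2 lower, and without the KR+ library 33 and 22. *Cd7* fell to a log2 fold change of 0.57 without the second KG+ library. *Gzmb* lost its call without that library, without the KR+ library and among cells of 5000 to 20000 UMIs. Without the library block no gene passed, with 143 higher and 99 lower at an unadjusted p under 0.05, and DESeq2 called 4 higher and 1 lower. *Tnfsf11* (2.19, adjusted p = 0.104), *Cd3g*, *Cd3d*, *Ccl5*, *Klf2*, *Cd7*, *Gzmb*, *Gzmf* and *S100a4* did not pass with DESeq2, with folds in the same direction.

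The last comparison set KR+ members beside KG+ members, which are different cells in separate libraries. With 1 KR+ library it has no test: a gene was called where KR+ differed from both KG+ libraries one way, by 2-fold or more from the nearer and by more than the gap between the KG+ libraries. Of 2792 genes, 2 (0.0716%) were called higher and 19 (0.681%) lower in KR+ members; in Eomes+ Rora- cells of the same libraries 28 of 2719 (1.03%) were higher and 151 (5.55%) lower. Set against one KG+ library alone, with no gap to exceed, 7 genes were higher and 30 lower without the first and 23 and 81 without the second. The strict gate gave 7 higher and 42 lower. *Ccl5* had the largest fall in members, from 1895 and 1458 CPM to 106.5 CPM (exact 95% Poisson interval 94.99 to 119), and went from 6774 and 4998 to 278 CPM in Eomes+ Rora- cells. In B cells it was at 454, 552 and 28.8 CPM, the last from 2 UMIs in 7 cells, which is too few to read a change. *Ccl4* went from 202 and 127 to 24.3 CPM and *Jak2*, a cytokine receptor kinase, from 117 and 89.4 to 37.3 CPM. *Ifng* went from 490 and 134 to 30.1 CPM, with the first value mostly from 1 cell, and fell short of a call without the highest Scrublet scores (log2 ratio -2.04 to the nearer KG+ library). *Gzma* was called too, but fell short of a call under the strict gate (log2 ratio -0.59 to the nearer KG+ library), without cells that Scrublet called doublets (-0.87) and without the highest Scrublet scores (-0.93).

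*Ccr7*, the lymph node homing receptor, went from 78.5 and 52.6 CPM in KG+ to 15.1 CPM in KR+ members; in Eomes+ Rora- cells it went from 28.9 and 42.0 to 18.7 CPM and was not called. B cells, which make *Ccr7*, held 706.5, 616 and 302 CPM, and their part in the members' values was not tested. *Ccrl2* went from 92.4 and 62.3 to 27.1 CPM. The interferon-stimulated *Rsad2* went from 132 and 116 to 37.0 CPM and *Cxcl10* from 654 and 659 to 278 CPM, but among cells of 5000 to 20000 UMIs their log2 ratios to the nearer KG+ library were -0.67 and -0.24, short of a call. *Serpine2*, a protease inhibitor gene, went from 52.4 and 71.3 to 22.6 CPM, with 47.1% and 46.3% of its KG+ UMIs in 1 cell each, and turned direction under the strict gate (log2 ratio 0.96). Both genes called higher in KR+ rested on a setting or on few cells: *Spp1* (osteopontin) stood at 101.6 and 112 against 301 CPM, with a log2 ratio of 0.99 in the depth window, and *Ifitm1* from 134 and 68.3 to 293 CPM, with 54.0% and 62.6% of its KG+ UMIs in 1 cell each and a log2 ratio near 0 in that window. *Krt83*, *Tmem176a* and *Tcrg-C4* were not called, and none of 12 tested ILC1 and tissue-residence genes was. With 0.0716% of all genes called higher and 0.681% lower, a list of this size would hold few calls in any case. Among the genes named by size between colors, *Spp1*, *Ifitm1*, *Ccl5*, *Ccl4*, *Ifng*, *Rsad2*, *Jak2*, *Ccrl2* and *Gzma* were also called in Eomes+ Rora- cells, in the same direction. *Ccr7*, *Cxcl10* and *Serpine2* were not. The difference between members and Eomes+ Rora- cells in their color response was not tested.

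**Figure D5:**
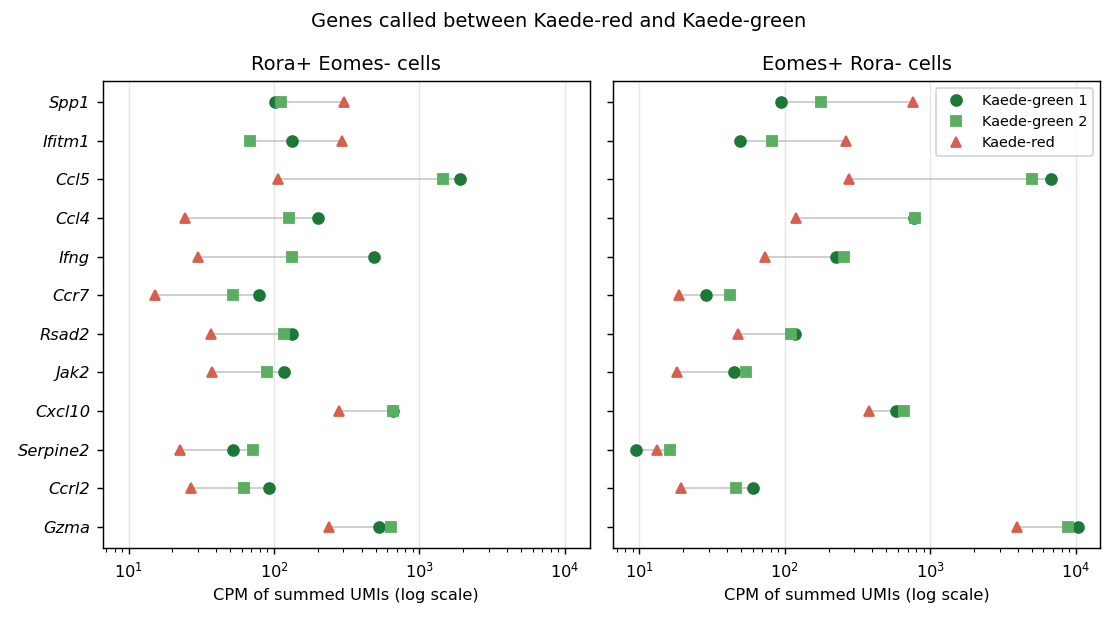
CPM of summed UMIs (x axis, log scale) in each library for the genes called between KR+ and KG+ members and named by size (y axis), in Rora+ Eomes- ILC-like cells (left) and Eomes+ Rora- cells (right). Ccl5 fell in both groups, from 1895 and 1458 to 106.5 CPM in members, while Serpine2, Cxcl10 and Ccr7 were called in members and not in Eomes+ Rora- cells; Serpine2 turned direction under the strict gate (log2 ratio 0.96).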

How the data were processed

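Whole-number UMI counts per gene and cell were deposited by the authors as filtered matrices, made with Cell Ranger on mm10; the submitters' processing notes name version 6.1.2 and the matrix headers 6.0.1. No count column was left without a sample. A cell was kept with between 1000 and 6000 detected genes and a mitochondrial share of UMIs below 7.5% (10000 of 10498, 11078 of 12327 and 10865 of 11956; 87193225, 129438292 and 175848894 UMIs per library). The labels call the KG+ libraries biological replicates. With the library as a block, p-values rest on how the difference within a library varied over 3 libraries. They do not measure the spread between libraries, and their dispersion is moderated across genes.

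UMIs were summed per library and cell group and tested in edgeR 4.0.16 (TMM, filterByExpr, glmQLFit, glmQLFTest, library as a block, Benjamini-Hochberg), since both sums of a library come from the same sample. Gate genes were left out of counts. Alternatives, run with DESeq2 1.42.0 among others, are in the closing section. The edgeR step was tested on simulated data. Doublets were not removed in the main analysis: Scrublet's own threshold (Scanpy 1.11.5) marked 3.49% of the first library but 0.0361% and 0.0092% of the others, so it did not work there, and leaving out the 8% of cells with the highest scores (8, 3 and 5 members) was added after seeing the data. Gene positions are from GENCODE vM21 (32158 of 32285 IDs matched). B cells had 2 or more *Cd79a* UMIs and no *Cd3e* or *Ncr1*.

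The members, gene lists and tests were chosen with earlier results of these data known. Named genes were the 12 largest and 12 smallest log2 fold changes among genes past an adjusted p of 0.05, with 1 sign in all 3 libraries and a mean of at least 50 CPM in the higher group, leaving out gate genes and unnamed gene models, or the 10 largest ratios each way between colors; genes of the 22 lists could be named with their list. Intervals cover counting error only. A few genes that these rules would name are not reported here.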

Additional observations from a re-analysis of the deposited data

How the results depend on the processing

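The share of members moved with the *Rora* limit: 6.24%, 9.50% and 13.4% at 1 UMI or more, and 3.03%, 5.86% and 9.05% at 3 or more; in KR+ it was 14.4% among cells of 5000 to 20000 UMIs and 9.33% after thinning. Counting only comparison cells with 2 *Eomes* UMIs or more, which shrinks the denominator by construction, gave 6.61%, 10.5% and 16.3%. Against Eomes+ Rora- cells, 107 genes were higher and 62 lower with no replicate block, 392 and 335 in the depth window, and 400 lower (46.6% of calls higher, against 56.9%) with no filter; leaving out a library gave 135 to 510 higher and 68 to 517 lower. Against Itga1+ cells, DESeq2 gave 288 and 157, no replicate block 172 and 100, the strict gate 228 and 143, and leaving out a library 329 to 532 and 228 to 340. For *Il7r*, DESeq2 gave 4 and 1, no filter 43 higher, no replicate block 0 and 0, the strict gate 1 and 2, and leaving out a library 10 to 33 and 2 to 22. Between colors the strict gate gave 7 higher and 42 lower, and leaving out a KG+ library 7 to 23 and 30 to 81. The cause was not tested. Under the strict gate *H2-Ab1* (-0.0899) and *Ifit1* (-0.86) reversed for *Il7r*, and *Serpine2* (0.96) between colors. Named genes of the first comparison kept direction and call in 330 refits and lost the call in 6, of *Ccdc184* (no replicate block; without the second KG+ library), *Gzmg* and *Ccl4* (no replicate block, adjusted p = 0.291). All 263 refits of the second comparison's named genes kept theirs; for *Il7r* 130 did, 70 lost the call and 2 reversed. The block pairs the 2 sums of 1 library by construction. The smallest library held 649510 member UMIs, so 3 UMIs there are 4.62 CPM.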

Other observations

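Lists not described above were also compared with Eomes+ Rora- cells. None of 18 tested cell cycle genes passed (median log2 fold change 0.17), in cells gated to at most 1 *Mki67* UMI. Of 27 hypoxia and glycolysis genes, *Hk2* and *Ddit4* were higher and *Ndrg1* and *Pfkp* lower. Of 24 immediate early genes, *Junb* was higher, at 2186, 2000 and 1443 CPM against 1515, 1391 and 784 CPM, and 2 were lower. Of 22 interferon-stimulated genes, *Ifi27l2a*, *Ly6a* and *Ifit3* were higher and *Usp18* lower. *Gpr183*, a receptor for oxysterols that guides lymphocytes, was at 453, 532 and 324 CPM in members and 122, 136 and 160 CPM in Eomes+ Rora- cells, and *Ccr2* at 119, 129 and 103 CPM against 232, 263 and 233 CPM, both without overlap. In all, 6 of 22 chemokine and lipid trafficking receptor genes were higher and 2 lower, 5 of 27 cytokine receptor genes were higher and *Il10ra* lower, and of 15 integrin genes *Itgb3* was higher and *Itgam*, *Itga2*, *Itga4* and *Itgb1* lower. *Cma1*, a mast cell protease gene, was the one tested gene of the mast cell and basophil list and was lower.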
